A study of Arabidopsis thaliana with 6 samples.

Results

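The genes described here belong to the NRT1/PTR family (NPF) of Arabidopsis, membrane proteins that carry nitrate, glucosinolates, peptides and plant hormones. They are GTR1, the glucosinolate transporter NPF2.10, and the genes whose symbol or synonym in the annotation tables begins with NRT1 and holds a number with a point or colon. A gene also needed a probe set annotated to it alone. In all, 28 genes met the naming criterion, all through a family name of the form NRT1/PTR family or a direct NRT1 number, and 11 of them had such a probe set. For 1 more the probe set was shared with another gene, and no value is given. The 10 kept were chosen by the highest mean linear signal over the 6 arrays, with GTR1 kept in any case. They are 10 of the 13356 genes that had their own probe set. None of the 9 genes with a direct NRT1 number in the annotation tables, such as the dual-affinity nitrate transporter NRT1.1, had one, and these are not analysed here. Members may carry such a number elsewhere. Read in that narrower way, the criterion leaves GTR1 alone. The word nitrate in a family name therefore does not describe these members as a group. Their known or likely substrates differ, and glucosinolate and hormone transporters are among them.

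NPF proteins share a fold of membrane-spanning helices and couple uptake of their substrate to protons. In roots the family is best known for nitrate uptake from the soil, loading and unloading of the xylem, and distribution of nitrate within the plant. Glucosinolates are sulphur-rich defence compounds of the cabbage order, and GTR1 and its paralog GTR2 import them into cells. Some NPF proteins, GTR1 among them, also transport gibberellin, and others transport abscisic acid. SPINDLY (SPY), the gene mutated in spy-3, encodes an enzyme that attaches a sugar to other proteins and represses gibberellin signaling.

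Whole roots were taken from seedlings of 7 d, 3 arrays for the spy-3 mutant and 3 for wild type (Col), both grown on the same MS agar without any treatment. MS agar is rich in nitrate, and no nitrogen supply was varied. The labels give Col as the ecotype of both genotypes. Each Affymetrix ATH1 array gives 1 MAS5 signal for each probe set, a linear brightness in arbitrary units. Signals of different probe sets depend on their oligonucleotides as well as on the transcript, so the brightness ranks below order probe sets and not transcript levels.

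The 6 arrays had median signals of 85.4 to 87.2, and on the log2 scale Pearson's r over all probe sets was 0.958 to 0.966 for arrays of the same genotype and 0.952 to 0.963 for arrays of different genotypes. SPY had signals of 244.9, 316.7 and 294.4 on the spy-3 arrays, against 258.2, 251.7 and 292.3 on the wild-type arrays, which does not test the genotype labels. Of 32 listed cell type markers, 6 had a probe set of their own. Of these 6, 3 were lower in spy-3 and 3 did not pass, at a threshold (adjusted p of 0.05) that 3.13% of all probe sets passed downward and 2.64% upward. The root hair expansin genes EXPA7 and EXPA18 were lower, with log2 changes of -0.44 for EXPA7 (limma, adjusted p = 0.00274) and -0.29 for EXPA18 (limma, adjusted p = 0.018), and the summed signal of both ran from 1586 to 1703 in spy-3 and from 2074 to 2155 in wild type. The Rubisco activase gene RCA, a green tissue marker, was lower as well (log2 change -0.57, limma, adjusted p = 0.0027). The summed signal of its list of 3 measured genes, 293.5 to 326.6 in spy-3 and 436.5 to 478.6 in wild type, came almost wholly from RCA, since the other 2 were dim, overlapped between the genotypes and were not called. The cortex marker CO2 (AT1G62500) had 19.2, 34.6 and 17.3 on the spy-3 arrays and 56.2, 59.5 and 57.5 on the wild-type arrays (limma, adjusted p = 0.0517). The listed markers of endodermis, stele, xylem, phloem and root cap had no probe set of their own. The part of cell composition in the differences below was not tested, and fewer cells of a type and less RNA per cell cannot be told apart in whole roots.

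Of the 10 members, GTR1 was higher in spy-3, AT2G26690 (NPF6.2) was lower, and the other 8 did not pass an adjusted p of 0.05 in limma, a linear model with a variance estimate shared across all 22746 probe sets. Among all probe sets, 2.64% were higher and 3.13% were lower at this threshold. The members' median log2 fold change was -0.05, against 0.02 over all probe sets, with 4 positive and 6 negative values. At an unadjusted p of 0.05, 3 of the 10 members passed, the third being AT1G72125 (NPF5.13), and so did 19.2% of all probe sets. In 1 member the 3 spy-3 signals lay above the 3 wild-type signals, and in 2 they lay below. Such a complete separation was found upward in 12.7% and downward in 11.5% of all probe sets.

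**Figure D1:**
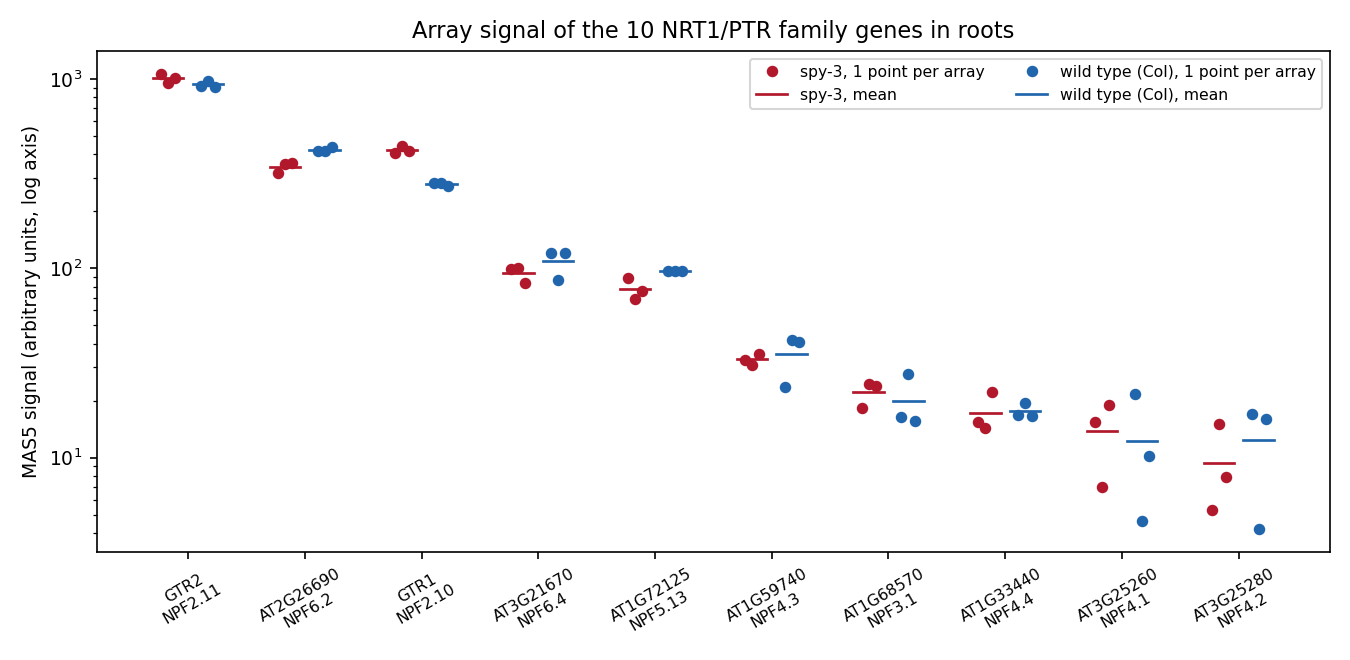
MAS5 signal (arbitrary units, log axis) of the 10 members on each array, spy-3 in red to the left and wild type in blue to the right, with 1 point per array and a line at the mean of 3 arrays. The spy-3 points of GTR1 (407.9 to 440.4) all lie above its wild-type points (272.4 to 282.9), and those of AT2G26690 (318.9 to 357.7) all lie below its wild-type points (414.4 to 435.0).

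GTR1 (AT3G47960) imports glucosinolates, both those derived from methionine and those derived from tryptophan, and carries gibberellin and a jasmonate conjugate as well. Its signal was 407.9, 440.4 and 417.5 on the spy-3 arrays, against 280.9, 282.9 and 272.4 on the wild-type arrays. The genotypes did not overlap, and the distance between the lowest spy-3 array and the highest wild-type array was wider than the spread within either genotype. The mean was 421.9 ± 16.7 (SD, n = 3) in spy-3 and 278.7 ± 5.6 (SD, n = 3) in wild type. The log2 fold change was 0.60 (standard error 0.045, 95% interval 0.49 to 0.71, limma, adjusted p = 0.00142), or 1.51-fold higher. By p-value this was rank 113 of 22746 probe sets.

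Under a stricter call that required 1.5-fold and an adjusted p of 0.01 together, GTR1 was the only member left, and 0.435% of all probe sets passed upward. At 1.51-fold it lay just beyond the fold limit, which its 95% interval included. Among the 600 probe sets called higher at an adjusted p of 0.05, 211 had a fold change at least as large. The call at an adjusted p of 0.05 held under all 14 alternatives run, including the omission of any single array, with log2 fold changes of 0.57 to 0.62 and adjusted p of 0.00012 to 0.0181. The stricter call was made on the reported fit alone. Its limit of 0.01 was not met by analysis of variance (adjusted p = 0.0155) or in limma without the mean-variance trend (adjusted p = 0.0181). With 1 array omitted, the adjusted p in limma ran from 0.00742 to 0.0159. An exact two-sided permutation test of 3 arrays against 3 gave p = 0.1 for GTR1, the smallest p that this design allows.

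GTR2 (AT5G62680, NPF2.11), the paralog that acts with GTR1 in moving glucosinolates to seeds and keeping them in the root, had the brightest probe set of the members. Its signals were 1068, 957.3 and 1017.1 on the spy-3 arrays and 917.9, 980.5 and 911.2 on the wild-type arrays. A spy-3 array lay below a wild-type array, so the genotypes overlapped. GTR2 had a log2 fold change of 0.11 (standard error 0.053, 95% interval -0.01 to 0.24, limma, adjusted p = 0.316). The interval reaches up to a 1.18-fold increase, and a difference of the size seen for GTR1 lies outside it.

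Because both transporters were read on every array, the ratio of the GTR1 signal to the GTR2 signal was compared within arrays. This ratio shows unequal change, and its height says nothing of the relative abundance of the transcripts. It was 0.382, 0.460 and 0.410 in spy-3, against 0.306, 0.289 and 0.299 in wild type. The spy-3 ratios all lay above the wild-type ratios, and the log2 ratio was 0.48 higher (exact two-sided permutation test, p = 0.1, the smallest p possible here). It was 1 of 4 such ratios computed, each of GTR1 to another of the brighter members. In the others the genotypes did not overlap either, with log2 differences of 0.79 to 0.92 (exact permutation test, p = 0.1 each). The exact p adjusted over the 4 was also 0.1. Every ratio holds the GTR1 signal, so the ratios are not evidence separate from the call of GTR1.

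AT2G26690 (NPF6.2) encodes the protein also known as NRT1.4, a name not in the annotation tables used, a low-affinity nitrate transporter known from the leaf petiole, and was the only member called lower. Its signal was 318.9, 353.3 and 357.7 in spy-3, against 414.4, 416.7 and 435.0 in wild type. The genotypes did not overlap. The first spy-3 array was the lowest of the 6. The mean was 343.3 ± 21.2 (SD, n = 3) in spy-3 and 422.0 ± 11.3 (SD, n = 3) in wild type, and the log2 change was -0.30 (standard error 0.056, 95% interval -0.43 to -0.16, limma, adjusted p = 0.0326), or 1.23-fold lower.

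The direction for AT2G26690 was the same under all 14 alternatives, but the call held in only 6 of them. It was lost in limma without the mean-variance trend (adjusted p = 0.116) and by analysis of variance, which the methods name (adjusted p = 0.104). It was also lost without spy-3 replicate 2 or 3 and without wild type replicate 1, 2 or 3, with adjusted p of 0.0807, 0.0687, 0.105, 0.109 and 0.10, and was kept without spy-3 replicate 1 (adjusted p = 0.0495). The log2 fold change stayed between -0.33 and -0.25 in these 6 fits.

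**Figure D2:**
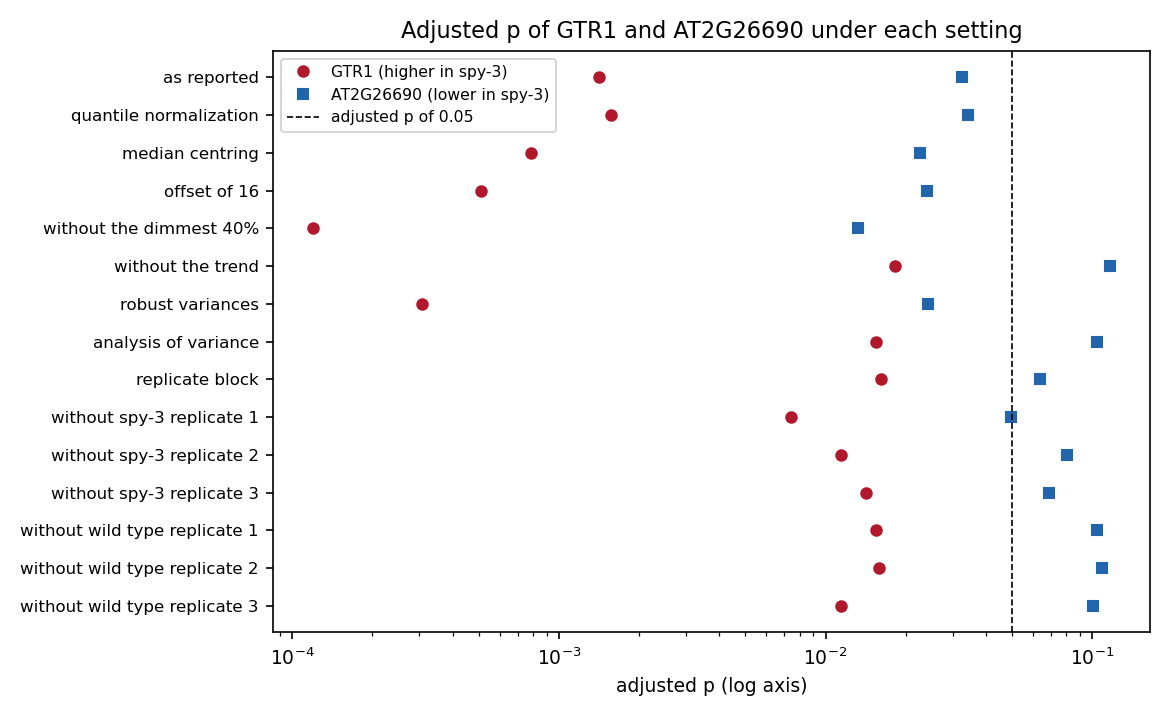
Adjusted p (log axis) of GTR1 in red and AT2G26690 in blue as reported and under each of the 14 alternatives, with a dashed line at 0.05. All points of GTR1 lie at or under 0.0181, and those of AT2G26690 run from 0.0132 to 0.116 on both sides of the line.

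AT3G21670 (NPF6.4) belongs to the same subfamily as NRT1.1 and AT2G26690. It had 99.2, 100.9 and 83.4 in spy-3 and 120.2, 86.5 and 120.8 in wild type. A single wild-type array, the second, lay within the spy-3 range. For this gene the log2 fold change was -0.20 (standard error 0.16, 95% interval -0.58 to 0.19, limma, adjusted p = 0.585). Leaving out 1 array moved it between -0.36, without wild type replicate 2, and -0.11, without spy-3 replicate 3, and it passed in none of these fits (adjusted p of 0.246 to 0.813).

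AT1G72125 (NPF5.13) was separated between the genotypes without being called. Its signals were 88.5, 68.7 and 76.2 in spy-3, against 97.1, 96.7 and 96.3 in wild type. The wild-type arrays differed by less than 1 unit, with a coefficient of variation of 0.414%, whereas that of the spy-3 arrays was 12.8%. In limma its log2 change was -0.32 (standard error 0.12, 95% interval -0.60 to -0.04, unadjusted p = 0.0297, adjusted p = 0.195). It was larger in size than that of AT2G26690, which passed on a standard error of 0.056. AT1G72125 lies directly beside AT1G72120 (NPF5.14) in gene order, and AT1G72120 had no probe set of its own.

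The brightness of the probe sets divided the members into equal parts. With a median of 86.95 over all probe sets for the mean signal of the 6 arrays, 5 members lay above it and 5 below. The standard error of the log2 fold change was 0.045 to 0.16 for the 5 brighter members and 0.27 to 0.69 for the 5 dimmer ones. Coefficients of variation within a genotype ran from 0.414% to 18.0% in the brighter and from 6.97% to 71.9% in the dimmer members. No member had a signal under 1 on any array, but detection calls were not in the sources used here. Whether the dimmer members were above background was not tested.

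**Figure D3:**
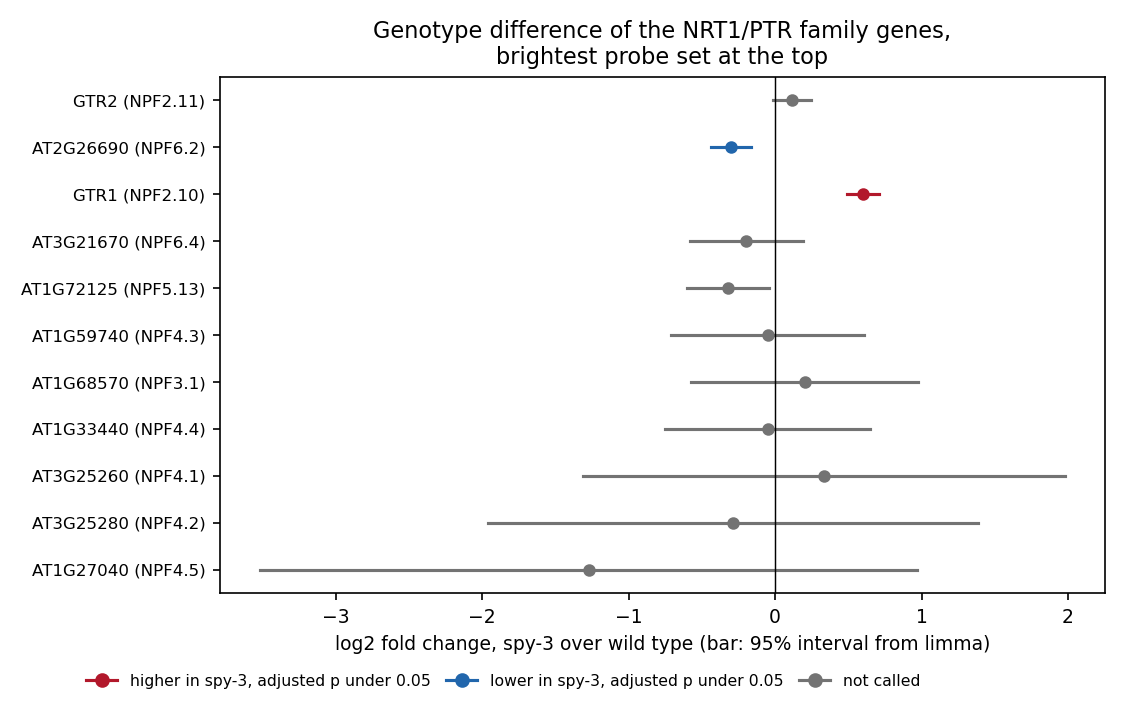
Log2 fold change of spy-3 over wild type with its 95% interval from limma for the 11 candidate genes measured by their own probe set, ordered from the brightest at the top, in red where higher and in blue where lower at an adjusted p of 0.05. The intervals are widest toward the bottom of the plot, with standard errors of 0.053 for GTR2 and 0.69 for AT3G25280, and the bottom gene, AT1G27040, is the one left out by its signal.

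The 5 dimmer members were AT1G68570 and 4 genes of the NPF4 subfamily, and none was called. AT1G68570 (NPF3.1), which takes up gibberellin and has been placed in the root endodermis, had 18.2, 24.5 and 24.0 in spy-3 and 16.4, 27.5 and 15.6 in wild type. The ranges overlapped, with the highest and the lowest of the 6 values both in wild type. Its log2 fold change was 0.20 (95% interval -0.57 to 0.98, limma, adjusted p = 0.799), which leaves room for a rise as large as that of GTR1. It ran from 0.053 without wild type replicate 3 to 0.46 without wild type replicate 2, and was 0.10 with 16 added to each signal.

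Among the 4 NPF4 genes, AT3G25260 (NPF4.1) transports gibberellin and abscisic acid when made in yeast cells, and AT3G25280 (NPF4.2) abscisic acid. AT3G25260 had 15.4, 7.0 and 19.0 in spy-3 and 21.8, 4.6 and 10.2 in wild type (log2 fold change 0.33, 95% interval -1.31 to 1.98). AT3G25280 had 5.3, 15.0 and 7.9 in spy-3 and 17.1, 4.2 and 15.9 in wild type (log2 fold change -0.29, 95% interval -1.96 to 1.38). In both genes the arrays of 1 genotype differed among themselves by more than the genotypes did. These 2 genes lie close together, with 2 other protein-coding genes between them.

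AT1G59740 (NPF4.3) had 32.9, 30.8 and 35.4 in spy-3, and its wild-type arrays, at 23.5, 41.7 and 40.7, lay on both sides of them. AT1G33440 (NPF4.4), also known as NRT1.13 but without a direct NRT1 number in the annotation tables, had 15.4, 14.4 and 22.1 in spy-3 and 16.8, 19.5 and 16.6 in wild type. Both had log2 fold changes of -0.05, with 95% intervals from -0.71 to 0.61 and from -0.75 to 0.65. The adjusted p of the 4 NPF4 members ran from 0.849 to 0.957 in limma. With intervals this wide, the arrays cannot show whether these transcripts differed by as much as GTR1 did.

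The member just inside the limit of 10 by brightness was AT3G25280, with a mean signal of 10.9, and the gene just outside was AT1G27040 (NPF4.5), with 8.93. AT1G27040 had 11.0, 8.6 and 0.8 in spy-3 and 12.8, 10.2 and 10.2 in wild type. The log2 fold change of -1.27 rests on the third spy-3 array, whose signal was raised to 1 before taking log2, and without that array it was -0.18.

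**Figure D4:**
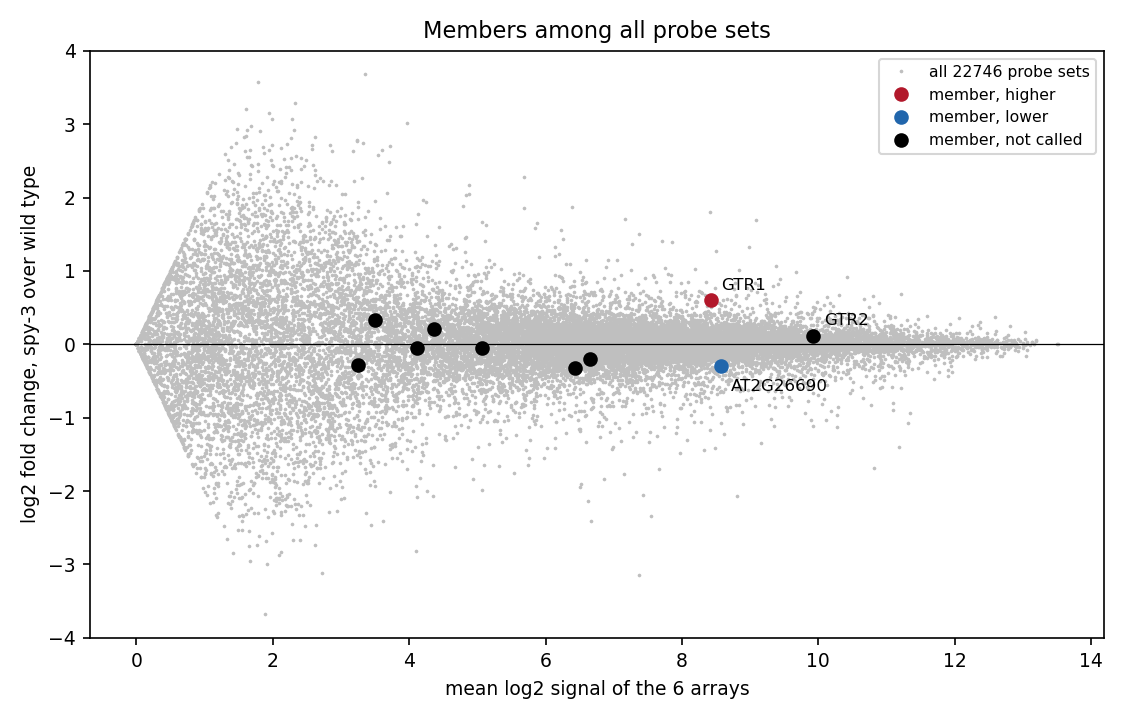
Log2 fold change of spy-3 over wild type against the mean log2 signal of the 6 arrays for all 22746 probe sets in grey and for the 10 members in red (higher), blue (lower) or black (not called). GTR1 lies at a log2 fold change of 0.60 and AT2G26690 at -0.30, and other probe sets of similar brightness lie as far from 0 or farther. The dim members lie where the scatter of all probe sets is wider than at the signal of GTR1.

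The other steps of the nitrate pathway could be followed for few genes. Of 61 listed genes of nitrate and ammonium transport, assimilation and their regulation, 5 had a probe set of their own, and none was called in either direction, with a median log2 change of 0.11, against 0.02 over all probe sets. At an unadjusted p of 0.05, 1 of the 5 passed in limma, against 19.2% of all probe sets. No nitrate reductase, nitrite reductase or glutamine synthetase gene was among them, and these are not analysed here. The high-affinity nitrate transporter gene NRT2.5, known as a gene of nitrogen-starved plants, was near the bottom of the signal range, at 3.3, 1.6 and 8.6 in spy-3 and 1.1, 5.6 and 2.8 in wild type.

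HHO1 (AT3G25790), HHO2 (AT1G68670) and HHO3 (AT1G25550) encode nitrate-induced repressors that act on nitrate transporter genes. HHO3 had 604.9, 630.5 and 600.2 in spy-3, against 572.0, 561.5 and 562.2 in wild type, without overlap with a log2 change of 0.11 (limma, adjusted p = 0.139). HHO1 did not overlap either, at 236.4, 236.7 and 245.3 in spy-3 against 213.8, 203.3 and 234.5 in wild type. Its log2 fold change was 0.14 (limma, unadjusted p = 0.0654, adjusted p = 0.298). Upward separation of this kind was found in 2 of the 5 measured nitrate genes and in 12.7% of all probe sets. HHO2 had a log2 change of the opposite sign, -0.11 (adjusted p = 0.415), and so had NRG2 (AT3G60320), a positive regulator of nitrate signaling, at -0.12 (adjusted p = 0.425).

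Of 51 listed genes of glucosinolate synthesis, its regulators and the myrosinases that break glucosinolates down, 7 had a probe set of their own. None was called higher or lower, with a median log2 change of -0.02 against 0.02 over all probe sets. At an unadjusted p of 0.05 in limma, 1 of the 7 passed, against 19.2% of all probe sets. That gene was UGT74B1, whose enzyme adds glucose in the formation of the glucosinolate core. It had 770.0, 721.2 and 608.8 in spy-3, against 606.7, 542.2 and 494.5 in wild type. The lowest spy-3 array was only just above the highest wild-type array, and 12.7% of all probe sets were separated upward. Its log2 fold change was 0.35 (standard error 0.11, 95% interval 0.09 to 0.61, limma, adjusted p = 0.14). UGT74B1 passed in 2 of 14 alternatives, among them the fit without the dimmest 40% of probe sets (limma, adjusted p = 0.033). It did not pass by analysis of variance (adjusted p = 0.314). With 1 array omitted it never passed (limma, adjusted p of 0.0979 to 0.324).

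UGT74C1 (AT2G31790), the related glucosyltransferase of the methionine-derived branch, had a log2 change of -0.20 (limma, adjusted p = 0.391). The glutathione transferase GSTU20, of the same branch, had one of -0.27 (adjusted p = 0.379), and BCAT4, which begins methionine chain elongation, had one of -0.02 (adjusted p = 0.944). PYK10, an abundant root beta-glucosidase that cleaves indole glucosinolates, had signals of 7092 to 8450 in spy-3 and 7250 to 7953 in wild type (log2 fold change -0.02, adjusted p = 0.947). The 6 measured genes of glucosinolate synthesis were thus few and mixed in sign beside GTR1, 3 positive and 3 negative. Their log2 changes ran from -0.27 to 1.95, the highest in a dim gene that was not called.

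**Figure D5:**
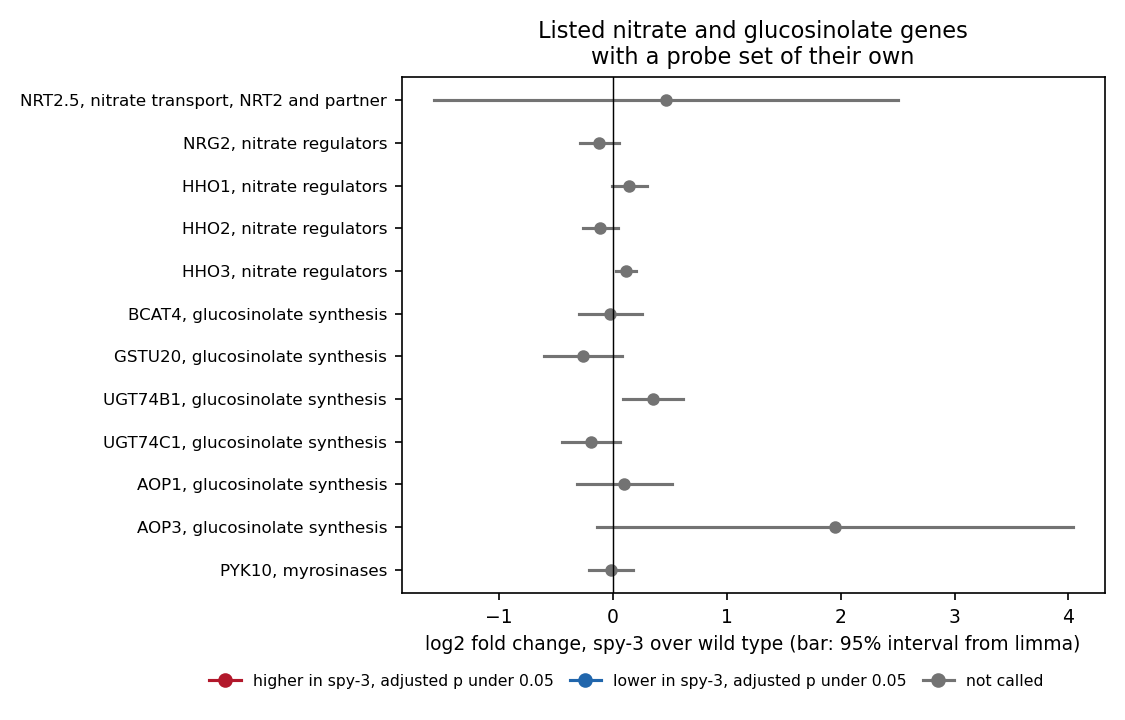
Log2 fold change of spy-3 over wild type with its 95% interval from limma for the 12 listed nitrate and glucosinolate genes that had their own probe set, all in grey because none passed an adjusted p of 0.05. UGT74B1 (0.35) and HHO3 (0.11) have intervals above 0, the other 10 intervals include 0, and those of the dim genes NRT2.5 and AOP3 are the widest.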

How the data were processed

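Each deposited value is the linear MAS5 intensity of a probe set, computed by the authors from Affymetrix ATH1 arrays. MAS5 comes from the submitters' processing notes, with version and scaling target not given in the sources used here. Mean signals of 330.5 to 332.8 show that the arrays were on a common scale. On each array, 4.48% to 6.21% of probe sets had a signal under 1.

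A signal below 1 was raised to 1 before taking log2. The spy-3 and wild-type arrays were set against each other in R 4.3.3 by limma 3.58.1 (linear model, eBayes with a mean-variance trend, two-sided) over all 22746 probe sets with Benjamini-Hochberg adjustment, and a gene was called at an adjusted p of 0.05. No filter was applied, so all members were tested. Fold changes are ratios on this log2 scale, which for dim probe sets are imprecise. The test was checked on simulated arrays. Tables and exact permutation tests used Python 3.11.15, pandas 2.3.3 and scipy 1.17.1. The number of arrays limits the precision. The methods call the replicates biological and do not say whether they were separate harvests, so the spread behind each p may be partly technical.

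Probe sets were named through the platform annotation and the RefSeq gene table (assembly TAIR10.1), which served only for names and gene order. A locus tag was found for 13436 of the 13513 single-gene probe sets. Each member had 1 such probe set. For a listed gene with several, the brightest was used. Named are all members, the gene just outside the limit, SPY, and in each list the called genes and up to 4 others of highest signal. The members and lists were chosen with earlier results of these data known. GTR1 was named outright by the criterion, so its call and rank are not free of that knowledge. The other members were ranked by the mean over both genotypes and not by their difference.

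Results were recomputed with median centring, with quantile normalization, with 16 added to each signal, without the dimmest 40% of the probe sets, with robust variances, without the variance trend, by one-way analysis of variance (named in the methods), with a block for replicate number, with a limit of 1.5-fold and an adjusted p of 0.01, and leaving out each array.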

Additional observations from a re-analysis of the deposited data

How the results depend on the processing

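With alternative processing, 1 member was higher in spy-3 under every setting run. The count of lower members, 1 as reported, was 0 in limma without the trend, by the analysis of variance and with the replicate block. It was also 0 at 1.5-fold with an adjusted p of 0.01, and 0 or 1 with 1 array omitted. The cause was not tested. The narrower reading of the naming criterion, added after seeing the data, leaves GTR1 alone. Its counts, 1 higher and 0 lower, only repeat the call of GTR1 and do not test that of AT2G26690. Whether the replicate numbers pair the arrays is not settled by the deviations from the genotype means. These correlated at 0.138, -0.101 and 0.14 for the same numbers and at -0.267 to 0.182 for unlike numbers. With the replicate block, AT2G26690 had an adjusted p of 0.0636 and GTR1 one of 0.0162. Of the listed glucosinolate genes, 1 was higher without the dimmest 40% and 1 with the replicate block, UGT74B1 in both cases (adjusted p = 0.033 and 0.0345). The counts of nitrate genes and of lower glucosinolate genes stayed at 0. With 1 array omitted, the uncalled log2 fold changes of dim or little-changed genes changed sign: AT1G59740 ran from -0.32 to 0.093, AT1G33440 from -0.24 to 0.069, AT3G25260 from -0.23 to 0.89, AT3G25280 from -0.95 to 0.068, NRT2.5 from -0.17 to 1.04, BCAT4 from -0.10 to 0.059 and PYK10 from -0.095 to 0.031. EXPA18 did not pass in 6 of the alternatives. CO2 passed in 4. Without the dimmest 40%, the 5 dimmer members and AT1G27040 were not tested. For dim probe sets, signal over background limits what can be shown.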
